A study of Mus musculus with 12 samples.

Results

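The genes described here are the subunits of the oxidative phosphorylation system, whose 5 enzyme complexes stand in the inner mitochondrial membrane. They were taken by name from the gene tables: every protein-coding gene whose symbol begins with mt-, and every nuclear one named as a subunit of NADH dehydrogenase (complex I, Nduf), succinate dehydrogenase (complex II, Sdh), the cytochrome bc1 complex (complex III, Uqcr), cytochrome c oxidase (complex IV, Cox4 to Cox8) or ATP synthase (complex V, Atp5), with the assembly factors named Ndufaf and Sdhaf left out. This gave 99 of the 41457 genes listed, 13 encoded in the mitochondrial genome and 86 in the nucleus. The nuclear set held 38 genes of complex I, 4 of complex II, 8 of complex III, 18 of complex IV and 18 of complex V. Complexes were assigned by symbol, so Ndufa4, which was later found in complex IV, counts under complex I in all counts and sums. The mitochondrial set held 7 genes of complex I, 1 of complex III, 3 of complex IV and 2 of complex V.

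Complexes I to IV pass electrons from NADH and succinate to oxygen, complexes I, III and IV pump protons as they do so, and complex V uses the proton gradient to make ATP. Apart from complex II, which is wholly nuclear, each complex is assembled from subunits of both genomes. The mitochondrial genes are copied as long polycistronic RNAs from each strand of a small circular genome and cut apart, mostly at the tRNAs between them. Their mRNA levels are therefore set after transcription as well as by it. Most of these mRNAs, though not all, carry short poly(A) tails through which a poly(A) selection can capture them. Regulatory T cells (Treg) are known for relying on mitochondrial respiration, and activation through the T cell receptor enlarges the mitochondrial content of T cells.

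The study asked what the loss of CD18, the beta chain shared by the beta2 integrins and encoded by Itgb2, does to Treg. CD18Foxp3 mice carry CD18 fl/fl alleles, with exon 3 of Itgb2 floxed, together with Foxp3Cre, so deletion is restricted to cells that express or have expressed FOXP3, and a Cre-dependent RFP reporter in the Rosa26 locus marks these cells. Controls, called CD18wt, were littermates with CD18wt/wt alleles that carried Foxp3Cre as well. RFP+CD4+ T cells were sorted from spleen and kept overnight with human IL-2 at 5 U/ml, either alone (unstimulated) or with agonistic anti-CD3 at 1 µg/ml and anti-CD28 at 2 µg/ml (stimulated), which stand in for the T cell receptor and costimulatory signals. Each of the 4 groups has 3 libraries labelled as biological replicates. The study describes the points of its transcript plots as individual mice, whereas the ages of these mice are not given in the sources used here. The p-values below measure the spread between these libraries.

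Itgb2 was read first, as the check of the genotype labels. It stood at 465, 431 and 387 TPM, the share of transcripts after correction for gene length, in the unstimulated CD18wt libraries and at 229, 257 and 234 in the unstimulated CD18Foxp3 libraries. With stimulation it stood at 331, 329 and 330 TPM in CD18wt and at 131, 202 and 183 in CD18Foxp3. Every CD18Foxp3 library lay below every CD18wt library under both conditions, but the RNA was not absent, and values for whole genes also count exons outside the floxed one. Depth ranged from 10665174 to 19005482 exon reads per library. All 6 markers of Treg and CD4 T cells were present, with a summed level of 1336 to 1662 TPM in the 6 unstimulated libraries and 2214 to 3678 TPM in the stimulated ones. Within this list Il2ra averaged 153 TPM without and 980 TPM with stimulation in CD18wt and Ctla4 216 and 580 TPM, whereas Cd4 averaged 614 and 366 TPM and Cd3e 369 and 265 TPM. Of 5 B cell markers 4 had reads, with a sum of 22.6 to 30.4 TPM unstimulated and 8.75 to 19.8 TPM stimulated. Nearly all of it was Cd79b, while Ighm had no read. Of 5 CD8 T and NK cell markers 4 had reads, with a sum of 27.6 to 38.8 TPM unstimulated and 13.8 to 28.3 TPM stimulated, most of it Cd8b1. Ncr1 had no read and Cd8a averaged at most 0.504 TPM in any group. The dendritic cell markers summed to 0.527 to 1.24 TPM unstimulated and 2.16 to 4.95 TPM stimulated, nearly all of it Zbtb46 and Xcr1. The erythroid markers summed to 1.67 to 30.9 TPM without and 0.0813 to 0.263 TPM with stimulation in CD18Foxp3, and to 1.83 to 4.21 and 0.725 to 2.56 TPM in CD18wt. The myeloid markers summed to 4.22 to 20.2 TPM over all libraries, the plasma cell markers to 1.09 to 4.85 TPM and the platelet markers to at most 0.887 TPM. The B cell, CD8 T and NK cell, dendritic and erythroid sums moved with stimulation, and their part in the differences below was not tested.

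Of the 12 libraries, 3 lay farthest from the others of their group in the genes of interest. CD18wt unstimulated replicate 3 was the shallowest and had the lowest share of intronic reads, 3.32% against 3.66% to 5.99% in the others. Its mitochondrial members lay at a median of 0.47 below the mean of the other 2 libraries of its group on the log2 scale, and its nuclear members at a median of 0.29 above it. CD18Foxp3 stimulated replicate 1 had mitochondrial members at a median of 0.72 above the other 2 of its group. CD18wt stimulated replicate 2, with an intronic share of 3.66%, had mitochondrial members at a median of 0.48 and nuclear members at a median of 0.24 above the other 2 of its group. The counts of mitochondrial and of nuclear members that rose or fell are given with and without these libraries.

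Of the 99 members, 92 had enough reads to be tested in at least 1 comparison. The 7 that did not were Ndufa4l2, Cox7b2, Cox8c, Cox6a2, Cox8b and Cox4i2, which had at most 2 reads in any library, and 1 of 2 rows named Atp5o, with up to 74 reads. A filter of this kind keeps a gene that is high in only 1 group, so the counts below describe the tested members and not all 99. Levels of 1 gene across libraries are normalised read counts (CPM), scaled to a common library size and composition, levels of different genes are compared in TPM, which account for length, and a gene is said to have risen or fallen when edgeR's quasi-likelihood test gave an adjusted p of at most 0.01 and a fold change of at least 1.5. In these pooled cells, fewer cells of a type cannot be told apart from less RNA per cell. All levels are relative to the other RNA of the same library, so the amount of an RNA per cell was not measured. A rise or fall is meant in this relative sense.

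The mitochondrial genes were the most abundant members in all 4 groups: all 13 lay above every nuclear member in mean TPM. In unstimulated CD18wt Treg the highest was mt-Co1, the catalytic core subunit of cytochrome c oxidase, at 24655 ± 4622 TPM (SD, n = 3). It was followed by mt-Atp6, the proton channel subunit of ATP synthase, at 19464 ± 4274 TPM, and mt-Co2, which takes up electrons from cytochrome c, at 18792 ± 1043 TPM, whose values overlap within 1 SD. The lowest was mt-Nd4l, a small membrane subunit of complex I, at 2170 ± 978 TPM, which did not differ beyond its spread from mt-Nd5 at 2355 ± 753 TPM or mt-Nd6 at 2648 ± 139 TPM. The highest nuclear member was Cox7a2l, a gene related to Cox7a2 of complex IV, at 914 ± 150 TPM.

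After stimulation of CD18wt Treg most of the mitochondrial mRNAs were lower relative to the other RNA of the libraries. Of the 13 genes, 8 fell and none rose, which is 61.5% against a background of 14.9% lower among all 11930 genes tested. In CD18Foxp3 Treg 6 of the 13 fell and none rose, 46.2% against 17.6% of 12019 genes. All 6 of these were among the 8 of CD18wt. The 13 genes are copied as shared long RNAs, so their falls are not independent results. The share of all genes is therefore only a rough guide to them. The median log2 fold change over the 13 genes was -1.12 in CD18wt and -0.75 in CD18Foxp3, where the median of all genes was 0.02 and 0.01. Without CD18wt unstimulated replicate 3 the count in CD18wt was 11, and without CD18wt stimulated replicate 2 it was 8. Without CD18Foxp3 stimulated replicate 1 the count in CD18Foxp3 was 12. It was also higher than 6 with the replicate numbers fitted as a block, as given with the processing below. The shares of all genes that fell in these fits are not given here, so the counts were not set against a background. In each genotype the stimulated and unstimulated libraries did not overlap for 8 of the 13 genes, all lower, where 27.7% of all genes in CD18wt and 32.4% in CD18Foxp3 were lower in every stimulated library.

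All 3 mitochondrial mRNAs of complex IV fell in both genotypes. mt-Co1 was counted at 17333, 15572 and 12837 CPM in unstimulated and 6543, 8004 and 4784 CPM in stimulated CD18wt Treg. In CD18Foxp3 Treg it was counted at 16006, 14052 and 11721 CPM without and 7901, 5336 and 5364 CPM with stimulation. The stimulated libraries lay wholly below the unstimulated ones in both genotypes. mt-Co1 fell by 1.25 ± 0.20 (SE) on the log2 scale in CD18wt (edgeR adjusted p = 0.00025) and by 1.16 ± 0.18 in CD18Foxp3 (adjusted p = 0.0005). mt-Co2 fell by 1.12 and 0.75, and mt-Co3, the third of the membrane core subunits, by 1.28 and 1.10, in the same order of genotypes. The call of mt-Co2 in CD18Foxp3 (edgeR adjusted p = 0.0086) was lost when any of 5 of the 6 libraries was left out, and held without CD18Foxp3 stimulated replicate 1. Over all 6 of these fits its log2 values ranged from -1.05 to -0.61.

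Complex V has both of its mitochondrial subunits in the membrane part of ATP synthase, and both fell. mt-Atp6 was counted at 5734, 5940 and 4218 CPM in unstimulated and 1859, 2150 and 1545 CPM in stimulated CD18wt Treg. The CD18Foxp3 libraries gave 5814, 5518 and 4496 CPM for mt-Atp6 unstimulated and 2731, 1648 and 1695 CPM stimulated. Again the groups did not overlap, and mt-Atp6 fell by 1.52 ± 0.18 in CD18wt and 1.38 ± 0.20 in CD18Foxp3 (edgeR adjusted p = 2.2e-05 and 0.00039), the largest fitted fall among the 13 genes in each genotype. mt-Atp8 fell by 1.49 ± 0.31 and 1.37 ± 0.26 (adjusted p = 0.0041 and 0.0017). CD18wt unstimulated replicate 3 had mt-Atp8 at 649 CPM against 1458 and 1497 in the others of its group, and the call in CD18wt held in only 1 of the 6 fits that left out a library, the 1 without that replicate.

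mt-Atp8 and mt-Atp6 share sequence, which is shown here because reads from the shared stretch belong to both genes and the pair is carried on 1 mRNA. The coding sequence of mt-Atp8 (GENCODE vM21 transcript, GRCm38, chrMT:7766-7969, plus strand) is printed with the 43 bases that are also the start of mt-Atp6, chrMT:7927-7969, in capitals.
mt-Atp8: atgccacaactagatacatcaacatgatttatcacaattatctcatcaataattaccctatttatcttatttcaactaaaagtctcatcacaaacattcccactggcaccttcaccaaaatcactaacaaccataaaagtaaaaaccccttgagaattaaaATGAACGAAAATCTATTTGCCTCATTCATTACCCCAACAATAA
Besides this pair, mt-Atp6 and mt-Co3 overlap by 1 base and mt-Nd4l and mt-Nd4 by 7 bases on the same strand, and mt-Nd5 and mt-Nd6 by 14 bases on opposite strands. The counting was not stated to use strand, so reads from mt-Nd6 and from RNA of the opposite strand cannot be told apart.

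Complex III has a single mitochondrial subunit, mt-Cytb, which carries both quinone sites. It was counted at 4469, 4407 and 2985 CPM in unstimulated and 1415, 1810 and 1083 CPM in stimulated CD18wt Treg. The CD18Foxp3 libraries gave 4373, 3893 and 3124 CPM unstimulated and 2144, 1311 and 1446 CPM stimulated. Without overlap between the groups, mt-Cytb fell by 1.46 ± 0.21 in CD18wt and 1.21 ± 0.20 in CD18Foxp3 (edgeR adjusted p = 0.00012 and 0.00073).

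The 7 mitochondrial genes of complex I behaved unevenly. mt-Nd3 and mt-Nd6 fell in CD18wt Treg, by 1.14 and 1.02. In CD18Foxp3 their values were -0.86 (edgeR adjusted p = 0.017) and -0.62 (adjusted p = 0.02), which did not pass. mt-Nd6, which is the only protein gene on the other strand, averaged 554 ± 47.7 CPM in unstimulated and 273 ± 47.1 CPM in stimulated CD18wt (SD, n = 3), with no overlap. mt-Nd4, mt-Nd5 and mt-Nd4l had log2 fold changes of -0.72, -0.72 and -0.57 in CD18wt and -0.57, -0.50 and -0.60 in CD18Foxp3, and none of these passed in either genotype. Single libraries decided these calls. In CD18wt mt-Nd4, mt-Nd5 and mt-Nd4l fell when unstimulated replicate 3 was left out. In CD18Foxp3 they fell when stimulated replicate 1 was left out, as did mt-Nd3 and mt-Nd6.

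mt-Nd1, a membrane subunit next to the quinone site of complex I, did not share the lower values of the other genes. It was counted at 2001, 2227 and 1544 CPM in unstimulated and 1739, 2519 and 1685 CPM in stimulated CD18wt Treg. In CD18Foxp3 the libraries held 2025, 1782 and 1613 CPM of mt-Nd1 unstimulated and 2823, 1624 and 1734 CPM stimulated. The groups overlapped in both genotypes, and the fitted log2 change was 0.04 ± 0.19 in CD18wt and 0.20 ± 0.21 in CD18Foxp3 (edgeR adjusted p = 0.88 and 0.44). mt-Nd2 gave -0.24 ± 0.20 and -0.23 ± 0.24 (adjusted p = 0.342 and 0.434), also with overlapping groups. mt-Nd1 and mt-Nd2 are the 2 protein genes nearest to the ribosomal RNA genes at the start of the heavy-strand transcript, and they had the smallest fitted changes of the 13 in both genotypes. The sign of these 2 depended on scaling, with mt-Nd2 positive in both genotypes on log2 TPM and mt-Nd1 negative in CD18wt with upper-quartile scaling. mt-Nd1 was also negative in CD18wt without unstimulated replicate 3 or stimulated replicate 2, and in CD18Foxp3 without stimulated replicate 1. In CD18Foxp3 mt-Nd2 was counted at 1323, 1133 and 935 CPM unstimulated and 1364, 762 and 756 CPM stimulated. Its highest value was that of stimulated replicate 1. Without this library the groups did not overlap, and mt-Nd2 was among the genes that fell. No scaling turned any mitochondrial gene that fell, although on log2 TPM mt-Atp8 in CD18wt and mt-Co2 and mt-Co3 in CD18Foxp3 no longer passed.

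**Figure D1:**
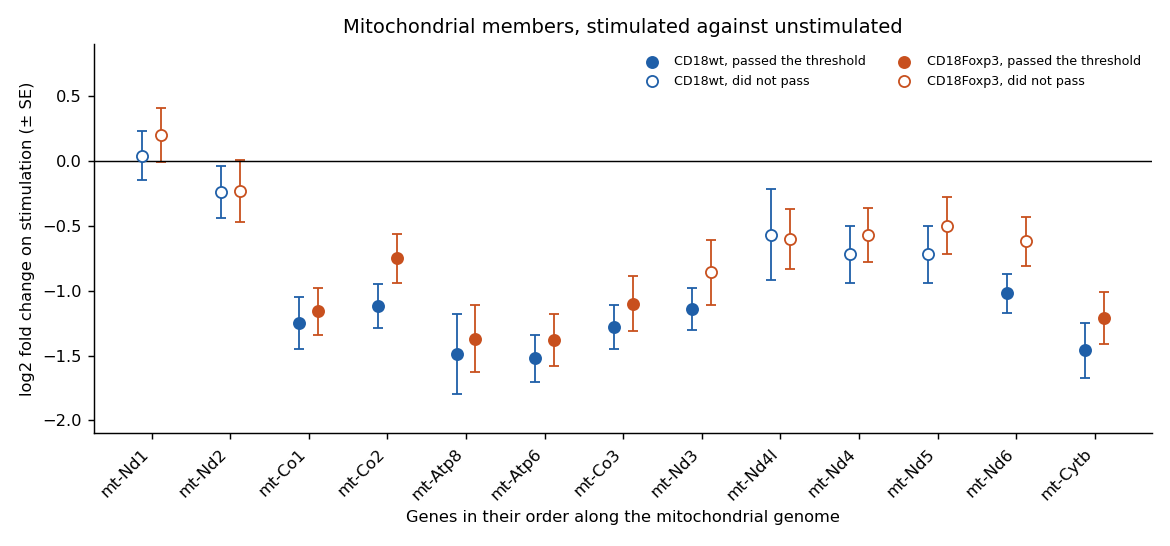
Log2 fold change on stimulation (vertical axis, ± SE) of the 13 mitochondrial protein genes in their order along the mitochondrial genome (horizontal axis), in CD18wt (blue) and CD18Foxp3 (orange) Treg, with 3 libraries per group. Filled points passed the threshold, 8 in CD18wt and 6 in CD18Foxp3, and mt-Nd1 at the left end lies at 0.04 and 0.20 while mt-Atp6 lies at -1.52 and -1.38.

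A ratio of 2 genes within a library does not depend on the scaling between libraries. The ratio of mt-Nd1 to mt-Cytb, chosen after their values were seen, was 0.535, 0.604 and 0.618 in TPM in unstimulated CD18wt libraries and 1.47, 1.66 and 1.86 in stimulated ones. In CD18Foxp3 the same ratio was 0.554, 0.547 and 0.617 without and 1.57, 1.48 and 1.43 with stimulation. mt-Nd1 thus went from the less to the more abundant of the pair in all 6 stimulated libraries. The ratio of mt-Nd2 to mt-Co1 likewise had means of 0.111 ± 0.0154 and 0.121 ± 0.00208 unstimulated and 0.228 ± 0.0451 and 0.227 ± 0.0263 stimulated in CD18wt and CD18Foxp3 (SD, n = 3). Such ratios show unequal change and not which of the genes changed.

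Summed over genes, the mitochondrial members took a smaller part of the transcriptome after stimulation while the nuclear members took a larger one. The 13 mitochondrial genes summed to 138830, 138749 and 93910 TPM in unstimulated and 72498, 82616 and 63848 TPM in stimulated CD18wt libraries. In CD18Foxp3 the sums were 131644, 119112 and 103345 TPM unstimulated and 103236, 64040 and 64645 TPM stimulated. CD18Foxp3 stimulated replicate 1 thus lay just below the lowest unstimulated library of its genotype. As a share of all TPM, the group means were 12.4% ± 2.60 and 11.8% ± 1.45 unstimulated and 7.30% ± 0.941 and 7.72% ± 2.23 stimulated, in CD18wt and CD18Foxp3 (SD, n = 3).

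The 86 nuclear members summed to 13424, 13397 and 16450 TPM in unstimulated and 17387, 18441 and 17161 TPM in stimulated CD18wt libraries. In CD18Foxp3 they summed to 13742, 13998 and 15083 TPM unstimulated and 18473, 18155 and 18786 TPM stimulated. Every stimulated library lay above every unstimulated one of its genotype. TPM add up to the same total in each library, and on log2 TPM the median of all genes was 0.36 higher with stimulation in CD18wt and 0.31 higher in CD18Foxp3, so sums in TPM are read against that shift. A larger nuclear sum in TPM therefore does not by itself show a rise beyond that of a typical gene. By complex, the nuclear sums of complex V had means of 3820 and 5195 TPM in unstimulated and stimulated CD18wt, those of complex I 4381 and 5663, those of complex III 1631 and 2017 and those of complex II 518 and 767, whereas complex IV stood at 4072 ± 428 and 4021 ± 323 TPM.

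The ratio of the mitochondrial to the nuclear sum is free of that shift. It was 10.3, 10.4 and 5.71 in unstimulated and 4.17, 4.48 and 3.72 in stimulated CD18wt libraries. In CD18Foxp3 it was 9.58, 8.51 and 6.85 unstimulated and 5.59, 3.53 and 3.44 stimulated. Every stimulated library lay below every unstimulated one of its genotype, and the mean ratio was 2.13 times lower in CD18wt and 1.99 times lower in CD18Foxp3 with stimulation. Summed from exon reads, without correction for gene length, the fold was 2.21 and 2.04, and from medians over members 1.72 and 1.49, the last with overlapping libraries.

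**Figure D2:**
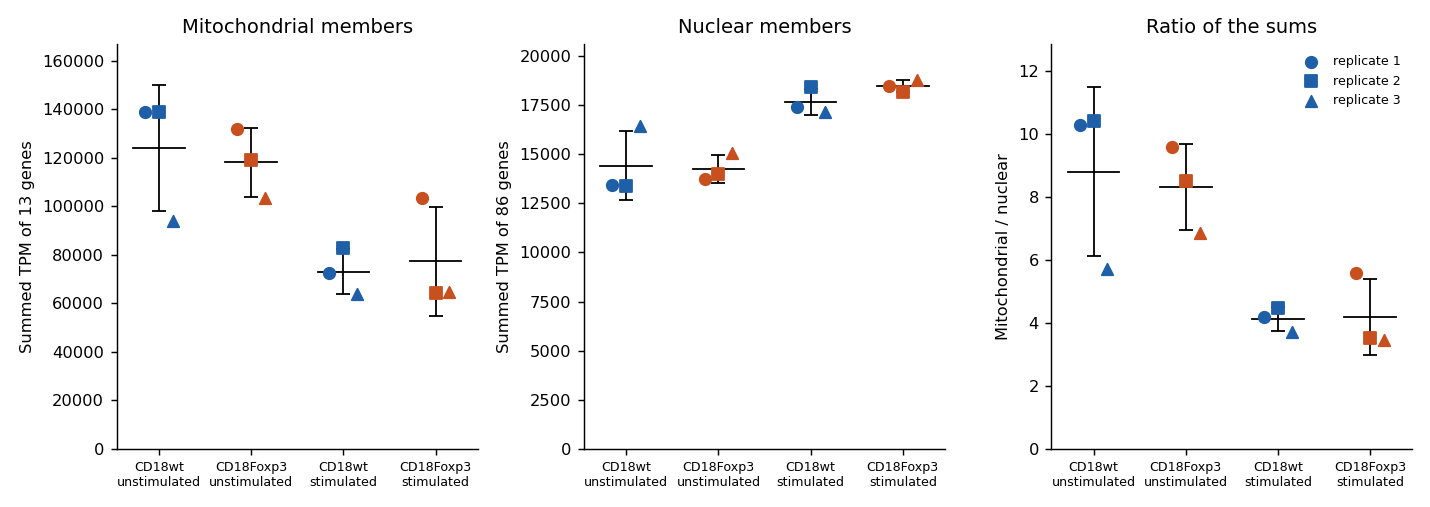
Summed TPM of the 13 mitochondrial members (left), of the 86 nuclear members (middle) and the ratio of the sums (right) in each of the 12 libraries, with bars for mean ± SD (n = 3 per group). The ratio lies between 5.71 and 10.4 in the 6 unstimulated libraries and between 3.44 and 5.59 in the 6 stimulated ones.

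The nuclear members moved in both directions. In CD18wt Treg 5 of the 77 tested rose and 7 fell, 6.49% and 9.09% against 18.7% and 14.9% of all genes tested. In CD18Foxp3 Treg 14 of 78 rose and 4 fell, 17.9% and 5.13% against 20.9% and 17.6% of all genes. In this fit the share that rose in CD18Foxp3 was near the background and the other shares were below it. The median log2 fold change was 0.08 in CD18wt and 0.17 in CD18Foxp3. On log2 TPM these medians were 0.47 and 0.52, against the shift of all genes of 0.36 and 0.31, and with limma on that scale 30 rose and 2 fell in CD18wt, against 30.1% and 7.19% of all genes, and 31 rose and 2 fell in CD18Foxp3, against 31.5% and 9.99%. With upper-quartile scaling 4 rose and 8 fell in CD18wt, against 16.5% and 17.1%, and 8 rose and 7 fell in CD18Foxp3, against 19.1% and 19.9%. Without CD18wt unstimulated replicate 3, 11 nuclear members rose and 4 fell in CD18wt, with a median of 0.19. Without CD18wt stimulated replicate 2, 4 rose and 7 fell, with a median of -0.03. Without CD18Foxp3 stimulated replicate 1, 10 rose and 6 fell in CD18Foxp3, with a median of 0.17. For these fits that left out a library the shares of all genes are not given here, so their counts were not set against a background. With no limit on fold, 6 rose and 7 fell in CD18wt, against 20.0% and 16.1% of all genes, and 18 rose and 7 fell in CD18Foxp3, against 23.0% and 19.3%. Libraries did not overlap for 15 nuclear members that were higher and 14 that were lower in CD18wt, and for 31 and 14 in CD18Foxp3, where 31.4% of all genes in CD18wt and 33.3% in CD18Foxp3 were higher in every stimulated library and 27.7% and 32.4% lower.

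**Figure D3:**
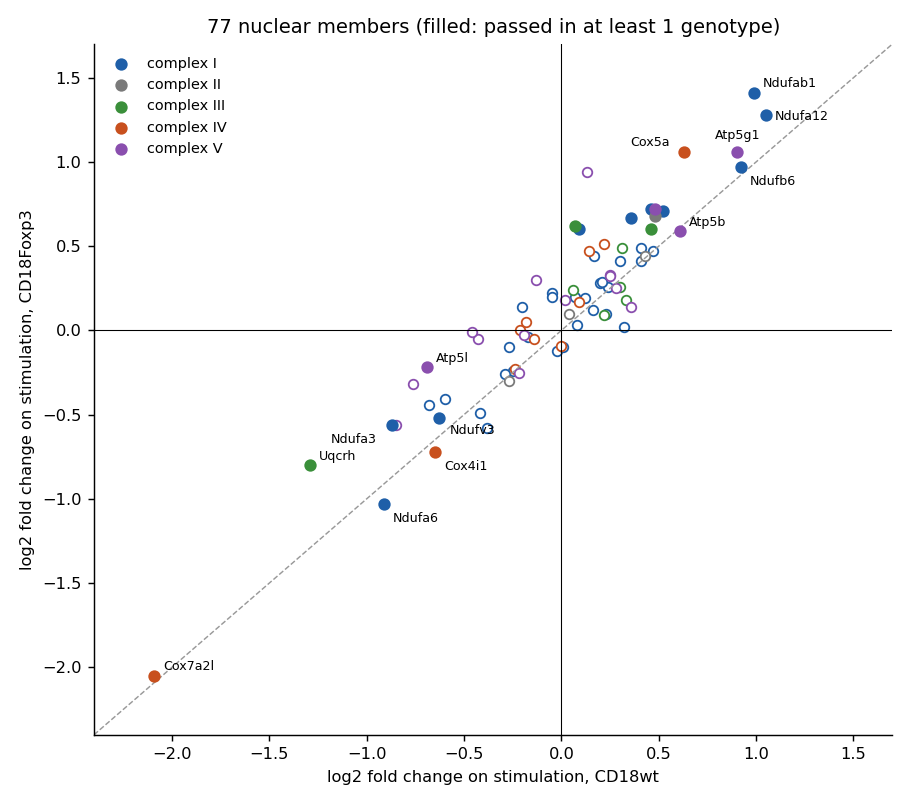
Log2 fold change on stimulation of the 77 nuclear members tested in both genotypes, in CD18wt (horizontal) against CD18Foxp3 (vertical), coloured by complex, with the dashed line marking equal values. Filled points passed the threshold in at least 1 genotype; Cox7a2l lies alone at -2.09 and -2.05, and Ndufab1 and Ndufa12 lie highest.

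In complex I, 3 of 37 nuclear subunits rose and 3 fell in CD18wt, 8.11% each, against 18.7% and 14.9% of all genes. In CD18Foxp3 7 rose and 1 fell, 18.9% and 2.70% against 20.9% and 17.6% of all genes. None of these shares exceeded that of all genes. Ndufa12, an accessory subunit of the matrix arm, was counted at 43.3, 37.7 and 45.1 CPM in unstimulated and 75.7, 100 and 84.9 CPM in stimulated CD18wt Treg. In CD18Foxp3 the libraries held 37.8, 41.4 and 45.6 CPM of Ndufa12 unstimulated and 113, 85.7 and 104 CPM stimulated. The groups were apart in both genotypes, and Ndufa12 rose by 1.05 ± 0.14 and 1.28 ± 0.14 on the log2 scale (edgeR adjusted p = 6.1e-05 and 6.7e-05). Ndufab1, the mitochondrial acyl carrier protein that is also a subunit of complex I, was counted at 32.4, 28.2 and 36.2 CPM in unstimulated and 64.8, 70.1 and 57.6 CPM in stimulated CD18wt Treg. Its CD18Foxp3 values were 26.7, 21.0 and 21.6 CPM unstimulated and 70.3, 59.9 and 54.0 CPM stimulated. Ndufab1 rose by 0.99 ± 0.15 and 1.41 ± 0.15 (adjusted p = 0.00012 and 6.1e-05), again without overlap. Ndufb6, a membrane-arm subunit, rose by 0.92 and 0.97, with 87.6% of its reads placed uniquely.

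Ndufa6, an accessory subunit of complex I that binds this acyl carrier protein, went the other way. It was counted at 89.2, 98.2 and 103 CPM in unstimulated and 49.7, 58.9 and 46.4 CPM in stimulated CD18wt Treg. In CD18Foxp3 it was counted at 104, 107 and 99.3 CPM without and 56.7, 46.6 and 47.8 CPM with stimulation. Ndufa6 fell by 0.91 ± 0.14 and 1.03 ± 0.12 (edgeR adjusted p = 0.00012 and 8.7e-05), and the groups did not overlap. Ndufa3 and Ndufv3, further accessory subunits, fell in CD18wt by 0.87 and 0.63. In CD18Foxp3 they had -0.56 (edgeR adjusted p = 0.011) and -0.52 (adjusted p = 0.005), under the fold of 1.5. The fall of Ndufv3 was lost without CD18wt unstimulated replicate 3 or stimulated replicate 1. Its log2 values over all fits that left out a library ranged from -0.72 to -0.54. On log2 TPM the falls of Ndufa3, Ndufa6 and Ndufv3 in CD18wt no longer passed. Ndufa4, Ndufa5, Ndufc1 and Ndufc2 rose in CD18Foxp3, by 0.71, 0.60, 0.67 and 0.72, and had 0.52, 0.09, 0.36 and 0.46 in CD18wt without passing. Of these rises that of Ndufc2 held with each library left out. The call of Ndufc1 was lost without any of the CD18Foxp3 libraries but stimulated replicate 2, that of Ndufa4 without any unstimulated library or stimulated replicate 1, and that of Ndufa5 without unstimulated replicate 2 or 3 or stimulated replicate 1 or 3. Over all fits that left out a library, kept calls included, their log2 values ranged from 0.46 to 0.84. With upper-quartile scaling none of these 3 passed. Ndufs1, the largest core subunit of the electron-input part, had 0.41 and 0.49 and passed in neither genotype.

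Complex II, succinate dehydrogenase, links the tricarboxylic acid cycle to the chain. Sdhd, 1 of its 2 membrane anchors, was counted at 68.5, 68.2 and 89.8 CPM in unstimulated and 95.9, 118 and 101 CPM in stimulated CD18wt Treg. In CD18Foxp3 the values of Sdhd were 73.2, 64.5 and 74.3 CPM unstimulated and 116, 106 and 116 CPM stimulated. The stimulated libraries were all above the unstimulated ones in both genotypes, but only in CD18Foxp3 did the gene pass, with a rise of 0.68 ± 0.11 (edgeR adjusted p = 0.00069) beside 0.48 ± 0.15 in CD18wt (adjusted p = 0.017), and the interaction test called no member. Sdhb, the iron-sulfur subunit, had 0.43 and 0.44, Sdhc, the other anchor, 0.04 and 0.10, and Sdha, the flavoprotein, -0.27 and -0.30. None of these 3 passed.

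In complex III, 1 of 8 nuclear subunits fell in CD18wt, 12.5% against 14.9% of all genes. In CD18Foxp3 1 fell and 2 rose, 12.5% and 25.0% against 17.6% and 20.9% of all genes. Uqcrh, the hinge protein that contacts cytochrome c1, was counted at 215, 191 and 370 CPM in unstimulated and 114, 106 and 98.0 CPM in stimulated CD18wt Treg. In CD18Foxp3 the counts were 237, 232 and 236 CPM without and 148, 127 and 130 CPM with stimulation. Uqcrh fell by 1.29 ± 0.22 and 0.80 ± 0.11 (edgeR adjusted p = 0.00077 and 0.00023) with no overlap. The value of 370 CPM belongs to CD18wt unstimulated replicate 3, and over the 6 fits that left out a library the log2 change in CD18wt stayed between -1.47 and -0.94 and past the threshold. The CD18Foxp3 call also held over its 6 fits but was lost on log2 TPM, at -0.44. Uqcrb and Uqcrq, small subunits at the membrane, rose in CD18Foxp3 by 0.62 and 0.60 and had 0.07 and 0.46 in CD18wt. The call of Uqcrb was lost without any unstimulated CD18Foxp3 library or stimulated replicate 1, and with upper-quartile scaling. That of Uqcrq was lost without unstimulated replicate 1 or 2 or stimulated replicate 3, and with DESeq2, upper-quartile scaling or TMM scaling without the mitochondrial genes. The core subunit Uqcrc1 had 0.22 and 0.09, and Uqcrfs1, the Rieske iron-sulfur protein, 0.30 and 0.26. Neither passed in either genotype.

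Complex IV held the nuclear member with the largest change in either direction. Cox7a2l was counted at 498, 461 and 681 CPM in unstimulated and 138, 147 and 101 CPM in stimulated CD18wt Treg. The CD18Foxp3 libraries gave 520, 515 and 493 CPM unstimulated and 124, 119 and 124 CPM stimulated. The lowest unstimulated library thus stood more than 3 times above the highest stimulated one in both genotypes. Cox7a2l fell by 2.09 ± 0.19 in CD18wt and by 2.05 ± 0.10 in CD18Foxp3 (edgeR adjusted p = 2.2e-06 and 1.3e-06). It passed under each of the 10 alternative settings and with each library left out in turn, between -2.22 and -1.68 in CD18wt. In mean TPM it went from rank 14 among the members, first of the nuclear genes, to rank 33 in stimulated CD18wt and from 14 to 42 in stimulated CD18Foxp3.

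Cox4i1, the common form of the largest nuclear subunit of complex IV, was counted at 367, 358 and 490 CPM in unstimulated and 247, 295 and 232 CPM in stimulated CD18wt Treg. In CD18Foxp3 it stood at 367, 414 and 424 CPM without and 190, 261 and 278 CPM with stimulation. Cox4i1 fell by 0.65 ± 0.16 and 0.72 ± 0.15 (edgeR adjusted p = 0.0039 and 0.0024), without overlap. The CD18wt call was lost without CD18wt unstimulated replicate 3, stimulated replicate 1 or stimulated replicate 3, with log2 values of -0.79 to -0.49 over the 6 fits. It was also lost with the replicate numbers fitted as a block. The CD18Foxp3 call was lost without unstimulated replicate 2 or 3, and neither passed on log2 TPM. Cox5a, which together with Cox5b lies on the matrix side of the complex, rose by 1.06 ± 0.13 in CD18Foxp3 (edgeR adjusted p = 0.00013) and had 0.63 ± 0.19 in CD18wt (adjusted p = 0.017), where its libraries overlapped.

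In complex V, 2 of 17 nuclear subunits rose and 1 fell in CD18wt, 11.8% and 5.88% against 18.7% and 14.9% of all genes. In CD18Foxp3 3 rose, 17.6% against 20.9% of all genes. Atp5g1, 1 of 3 genes for the same c subunit of the proton ring, was counted at 56.9, 73.2 and 74.5 CPM in unstimulated and 114, 146 and 122 CPM in stimulated CD18wt Treg. In CD18Foxp3 the gene stood at 60.9, 64.3 and 67.6 CPM without and 139, 139 and 124 CPM with stimulation. Atp5g1 rose by 0.90 ± 0.15 and 1.06 ± 0.11 (edgeR adjusted p = 0.00027 and 4.7e-05), without overlap. Atp5b, the catalytic beta subunit, rose by 0.61 ± 0.15 and 0.59 ± 0.09, close to the fold limit of 1.5. Its call was lost without any 1 of 4 libraries in CD18wt, namely replicates 1 and 2 of each condition, and of 3 in CD18Foxp3, unstimulated replicate 2 and stimulated replicates 2 and 3, and in both genotypes with DESeq2 and with upper-quartile scaling. In CD18Foxp3 it was also lost with TMM scaling without the mitochondrial genes and with all 12 libraries in 1 fit. The CD18wt call of Atp5b was also lost with the replicate numbers fitted as a block. Atp5g3 rose by 0.72 in CD18Foxp3 and had 0.48 in CD18wt.

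Atp5l, the g subunit of ATP synthase, fell by 0.69 ± 0.18 in CD18wt (edgeR adjusted p = 0.0072) and had -0.22 ± 0.13 in CD18Foxp3. Its CD18wt libraries held 118, 121 and 195 CPM unstimulated and 89.7, 92.8 and 85.3 CPM stimulated. The highest value was that of replicate 3, and the call was lost without this library or any 1 of the 3 stimulated ones, with log2 values of -0.82 to -0.42 over the 6 fits, and on log2 TPM. Fitting the replicate numbers as a block also lost the call. Only 79.7% of the reads of Atp5l and 39.5% of those of the tested row of Atp5o were placed uniquely, so part of their counts may belong to near-identical copies.

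**Figure D4:**
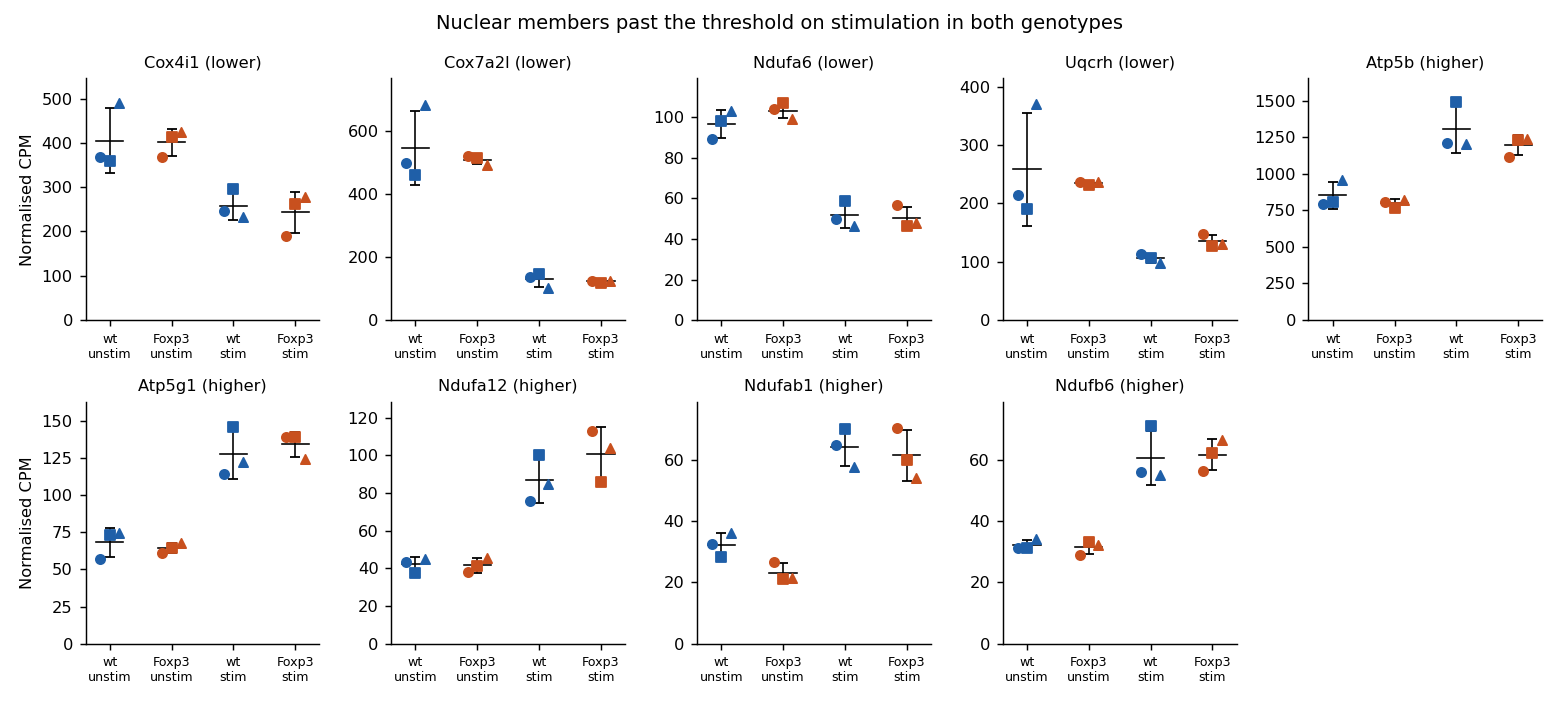
Normalised CPM in each of the 12 libraries (points; circle, square and triangle for replicates 1, 2 and 3) of the 9 nuclear members that passed the threshold on stimulation in both genotypes, with bars for mean ± SD (n = 3 per group). Cox4i1, Cox7a2l, Ndufa6 and Uqcrh are lower and Atp5b, Atp5g1, Ndufa12, Ndufab1 and Ndufb6 higher in every stimulated library than in any unstimulated library of the same genotype.

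Several subunits exist as isoforms of other tissues or conditions, and in these Treg the widely expressed form carried nearly all of the RNA. Cox4i1 averaged 646 ± 84.5 TPM in unstimulated CD18wt, whereas Cox4i2, the form induced by low oxygen, had at most 1 read in any library. Cox6a1 averaged 508 ± 84.4 TPM, and Cox6a2, the heart and muscle form, had at most 2 reads. Cox6b1 stood at 512 ± 69.6 TPM beside 0 to 11 reads of the testis form Cox6b2. Cox8a stood at 556 ± 62.2 TPM, with no read of Cox8b. Cox7a1, the muscle form, had 1 to 13 reads, beside Cox7a2 at 165 ± 17.1 TPM. Ndufa4l2, which is induced by low oxygen, had at most 2 reads, beside 880 to 3892 reads of Ndufa4, which was first counted as part of complex I and later found in complex IV.

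Of the related genes that were expressed, Cox7a2 and Cox7a2l differed. The log2 fold change of Cox7a2 was 0.22 in CD18wt and 0.51 in CD18Foxp3 (edgeR adjusted p = 0.254 and 0.022), without passing. In mean TPM Cox7a2l stood above Cox7a2 in unstimulated CD18wt, 914 against 165, and close to it in stimulated CD18wt, 284 ± 40.7 against 252 ± 16.3 (SD, n = 3). In stimulated CD18Foxp3 the values were 270 ± 1.68 and 296 ± 60.5 TPM, within the spread of each other. The 3 genes of the c subunit encode the same mature protein, and they also differed. Atp5g1 was the lowest of them in every group, at a mean of 34.5 TPM in unstimulated and 84.7 TPM in stimulated CD18wt, and Atp5g2 had log2 fold changes of -0.22 and -0.25 that did not pass. Atp5g3 had 225 ± 32.0 TPM beside 251 ± 36.8 TPM of Atp5g2 in unstimulated CD18wt, within 1 SD, and 416 ± 21.0 beside 283 ± 12.2 TPM in stimulated CD18wt.

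Between the genotypes no member passed the threshold, in unstimulated or in stimulated Treg. Among all genes, 0.135% of 11829 passed in unstimulated cells and 0% of 11930 in stimulated cells by edgeR's test. Itgb2 itself had -0.85 ± 0.09 in unstimulated cells (adjusted p = 0.0041) and -0.94 ± 0.17 in stimulated cells (edgeR adjusted p = 0.216), so the targeted gene did not pass in the latter. DESeq2, limma and the other settings also called 0 members. At an unadjusted p under 0.05 there were 3 of 90 members in unstimulated and 3 of 90 in stimulated cells, against 9.59% and 4.89% of all genes. The medians of CD18Foxp3 against CD18wt were -0.06 over the mitochondrial and -0.03 over the nuclear members without stimulation, and 0.12 and 0.10 with it. Without CD18Foxp3 stimulated replicate 1 the mitochondrial median in stimulated cells was -0.21, and without CD18wt unstimulated replicate 3 that in unstimulated cells was -0.23. That no member passed does not show that the genotypes were alike.

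The smallest p in unstimulated Treg belonged to mt-Nd6, at a mean of 554 ± 47.7 CPM in CD18wt and 438 ± 5.62 CPM in CD18Foxp3 (SD, n = 3). These libraries did not overlap, and the fitted difference was -0.34 ± 0.09 (edgeR adjusted p = 0.157). Among the nuclear members the smallest p belonged to Ndufab1 with -0.48 ± 0.14 (adjusted p = 0.242), Cox5a with -0.40 (adjusted p = 0.428) and Atp5j, a subunit of the stalk of ATP synthase, with 0.17 (adjusted p = 0.563). In stimulated Treg, Uqcrh had 0.35 ± 0.15, Uqcrb 0.39 ± 0.17 and Atp5l 0.35 ± 0.16 (edgeR adjusted p = 0.959, 0.985 and 0.995). None of these passed.

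Whether the response to stimulation differed between the genotypes was tested as an interaction over all 12 libraries. It called 0 of 92 members and 0% of 12636 genes with edgeR, and 0 members with DESeq2 and limma. At an unadjusted p under 0.05 there were 2 members, Uqcrb with a difference of 0.54 ± 0.23 and Ndufa5 with 0.50 ± 0.23 (adjusted p = 0.987 for both), against 3.84% of all genes. The mitochondrial genes had interaction values from -0.04 to 0.39. Genes that passed in 1 genotype and not in the other, such as mt-Nd3, Cox5a and Sdhd, were thus not shown to differ between genotypes.

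**Figure D5:**
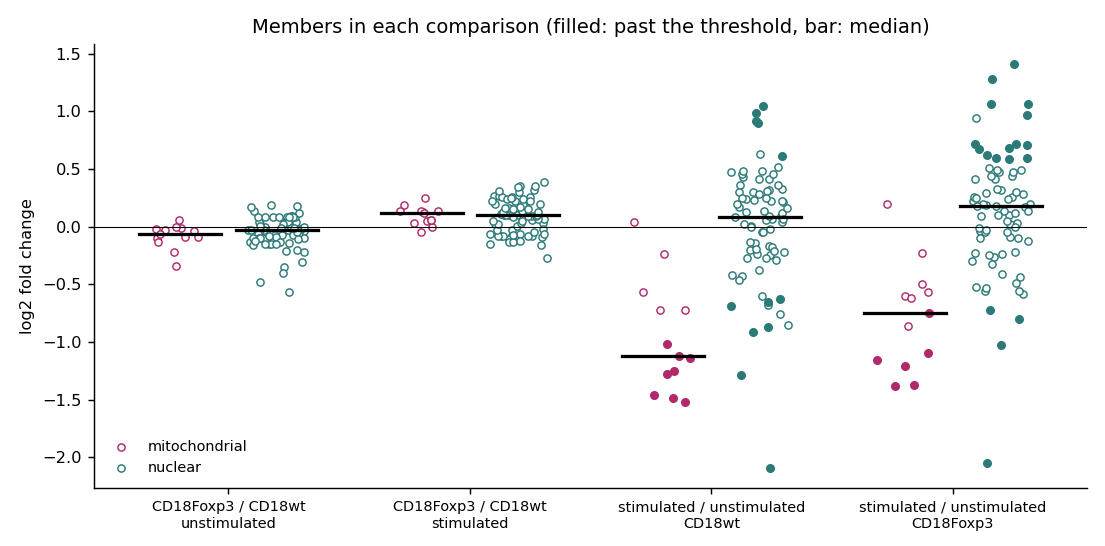
Log2 fold change of each tested member in the 2 genotype comparisons and the 2 stimulation comparisons, mitochondrial (magenta) and nuclear (green), with bars for the medians. Filled points passed the threshold; none did between genotypes, where the medians lie between -0.06 and 0.12, while the mitochondrial medians on stimulation lie at -1.12 and -0.75.

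The rest of the respiratory system was read from 12 lists of related genes, whose counts on stimulation stand beside the 18.7% higher and 14.9% lower of all genes in CD18wt and the 20.9% and 17.6% in CD18Foxp3. The electron carriers and enzymes that feed the chain rose in part, with 6 of 12 higher and none lower in each genotype and median log2 fold changes of 0.83 and 0.72, where the median of all genes was 0.02 and 0.01. Among them, Cyc1, the cytochrome c1 of complex III that the name rule does not take in, rose by 1.18 and 1.00 in CD18wt and CD18Foxp3. Cycs, the mobile cytochrome c, rose by 0.99 and 1.14. Coq7, an enzyme of coenzyme Q synthesis, rose by 2.52 and 2.16, and Gpd2, which feeds electrons from glycerol 3-phosphate, by 1.07 and 1.61.

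The assembly factors were mixed. For complex I, 3 of 15 rose and 1 fell in CD18wt, and 3 rose and 2 fell in CD18Foxp3, with Ndufaf4 at 1.41 and 1.34, Ndufaf6 at 1.67 and 2.09, and Ndufaf3 at -0.99 and -0.69. The medians of this list were 0.42 and 0.41. For complex II, 1 of 4 fell in each genotype, Sdhaf1, which helps insert the iron-sulfur clusters of Sdhb, by 1.35 and 1.56. For complex III, 1 of 6 rose and 1 fell in each, Uqcc2 with 0.75 and 0.99 and Uqcc3 with -1.49 and -1.57. For complex IV, 2 of 21 rose and 4 fell in CD18wt and 3 of 20 rose and 4 fell in CD18Foxp3. Surf1, a factor needed early in the assembly of complex IV, fell by 1.45 and 1.26, and Coa7 rose by 1.19 and 0.73. For complex V, 2 of 4 rose in each, among them Tmem70 by 0.99 and 1.06. The medians for complexes II to V were -0.69, 0.10, 0.07 and 0.51 in CD18wt and -0.40, 0.46, 0.31 and 0.47 in CD18Foxp3.

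Of 15 factors of mitochondrial RNA processing and stability, 8 rose in CD18wt and 10 in CD18Foxp3, and none fell, with medians of 0.78 and 0.82. Tbrg4, also called Fastkd4, rose by 1.77 and 1.58, Fastkd3 by 1.69 and 1.38, Elac2, which trims the 3' ends of the tRNAs, by 1.00 and 0.86, and Lrpprc, a stabiliser of mitochondrial mRNAs, by 0.92 and 1.10. Of 15 genes of replication and transcription, 3 rose in each genotype and none fell, close to the share of all genes that rose, with medians of 0.15 and 0.26. Top1mt, the mitochondrial topoisomerase, rose by 1.38 and 1.34. Polrmt, the mitochondrial RNA polymerase, rose by 0.75 in CD18wt and had 0.26 in CD18Foxp3 (edgeR adjusted p = 0.318). The mitochondrial ribosome had 31 of 78 proteins higher and 2 lower in CD18wt, and 33 higher and 1 lower in CD18Foxp3, with Mrps22 at 1.74 and 1.69 and medians of 0.54 in both.

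Protein import held 13 of 19 genes that rose and 1 that fell in CD18wt, and 12 that rose in CD18Foxp3, with medians of 0.95 and 1.24. Hspd1, the matrix chaperonin, rose by 2.27 and 2.69, Hspa9, the matrix Hsp70, by 1.73 and 2.10, and Tomm40, the channel of the outer membrane, by 1.95 and 1.65. Of 13 genes of the tricarboxylic acid cycle, 3 rose in CD18wt and 4 in CD18Foxp3, among them Fh1 by 1.39 in both and Idh3a by 1.06 and 1.05, with medians of 0.43 and 0.44. Of 10 regulators of respiratory genes, 3 rose in each genotype, namely Myc by 1.87 and 1.78, Pprc1, a coactivator, by 1.69 and 1.72, and Hcfc1 by 0.61 and 0.59, and the medians were 0.12 and -0.11. Nrf1, which binds many promoters of nuclear respiratory genes, had -0.15 and -0.31 and did not pass. No gene of these 12 lists passed between genotypes or in the interaction by edgeR's test, and no named gene that rose or fell changed sign under another scaling. The counts themselves depended on the scale. On log2 TPM, where 30.1% of all genes rose and 7.19% fell in CD18wt and 31.5% and 9.99% in CD18Foxp3, 58 and 55 of the 78 ribosomal proteins rose and none fell in CD18wt and CD18Foxp3, 9 of the 15 complex I assembly factors rose in each, and 9 and 10 of the 13 tricarboxylic acid cycle genes rose. On the same scale 5 and 10 of the complex IV assembly factors rose and 1 fell in each. Hcfc1, at the fold limit, did not pass with DESeq2 (0.58 in each genotype) or upper-quartile scaling (0.52 and 0.53), nor in CD18Foxp3 with TMM scaling without the mitochondrial genes (0.58). It also missed the limit in CD18wt without unstimulated replicate 3 (0.57) or stimulated replicate 3 (0.58), and in CD18Foxp3 without unstimulated replicate 3 (0.54), stimulated replicate 2 (0.58) or stimulated replicate 3 (0.57). DESeq2 gave 3 of the 4 complex II assembly factors lower in CD18wt in place of 1.

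Promoters were examined because members of the same complex moved in opposite directions. RefSeq promoters (GRCm38.p6, 250 bases before to 50 after each start) were found for 68 of the 86 nuclear members, 72 in all, and were searched on both strands for 4 motifs. The NRF1 motif, GCGCANGCG, was in 21 of the 72, 29.2%, against 6.25% of all 32851 promoters of the same length. The core of the ETS motif bound by GABP, CCGGAAG, was in 16, 22.2% against 8.86%. The YY1 motif, ATGGCGGC, was in 7, 9.72% against 2.24%, and the motif of the estrogen-related receptors, TCAAGGTCA, in 2, 2.78% against 0.423%. At least 1 of the 4 was in 37 of the 72 promoters, 51.4% against 15.7%. Of the members that rose in either genotype, 12 had a promoter in the table, and 3 of them held the NRF1 motif and 2 the ETS motif. Of those that fell, 6 had a promoter, with 2 for each of these motifs. The estrogen-related receptor motif was in 2 of the 12, those of Atp5g3 and Sdhd, and in 0 of the 6, and the YY1 motif in none of either. A match is a run of letters and not a site shown to be used.

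The promoters of 3 genes that fell and 2 that rose in both genotypes are shown for comparison, 5' to 3' on the strand of the gene, with motif matches in capitals.
Cox7a2l (chr17:83514284-83514583, minus strand): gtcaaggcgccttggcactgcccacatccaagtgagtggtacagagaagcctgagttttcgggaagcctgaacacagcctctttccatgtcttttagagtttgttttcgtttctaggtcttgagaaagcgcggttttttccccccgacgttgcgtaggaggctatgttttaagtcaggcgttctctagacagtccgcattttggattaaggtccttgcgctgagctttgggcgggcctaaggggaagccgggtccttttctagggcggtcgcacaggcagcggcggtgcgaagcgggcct
Ndufa6 (chr15:82354242-82354541, minus strand): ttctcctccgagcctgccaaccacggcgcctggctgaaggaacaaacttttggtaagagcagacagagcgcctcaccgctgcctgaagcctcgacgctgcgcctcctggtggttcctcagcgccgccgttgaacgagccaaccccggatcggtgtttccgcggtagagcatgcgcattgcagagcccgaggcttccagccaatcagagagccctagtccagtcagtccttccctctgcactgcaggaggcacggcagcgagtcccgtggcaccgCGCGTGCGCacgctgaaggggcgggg
Uqcrh (chr4:116075021-116075320, minus strand): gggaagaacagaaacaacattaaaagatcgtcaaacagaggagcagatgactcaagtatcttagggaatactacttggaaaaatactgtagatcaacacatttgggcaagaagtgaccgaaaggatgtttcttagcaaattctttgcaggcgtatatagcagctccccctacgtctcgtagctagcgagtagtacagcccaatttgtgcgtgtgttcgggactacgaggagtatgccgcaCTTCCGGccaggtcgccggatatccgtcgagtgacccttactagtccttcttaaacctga
Ndufa12 (chr10:94198785-94199084, plus strand): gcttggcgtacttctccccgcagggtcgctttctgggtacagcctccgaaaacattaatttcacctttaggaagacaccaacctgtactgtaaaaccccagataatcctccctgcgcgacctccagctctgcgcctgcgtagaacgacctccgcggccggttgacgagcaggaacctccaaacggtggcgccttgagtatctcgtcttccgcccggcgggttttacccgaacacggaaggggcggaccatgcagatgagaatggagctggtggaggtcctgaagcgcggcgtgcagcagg
Ndufb6 (chr4:40279372-40279671, minus strand): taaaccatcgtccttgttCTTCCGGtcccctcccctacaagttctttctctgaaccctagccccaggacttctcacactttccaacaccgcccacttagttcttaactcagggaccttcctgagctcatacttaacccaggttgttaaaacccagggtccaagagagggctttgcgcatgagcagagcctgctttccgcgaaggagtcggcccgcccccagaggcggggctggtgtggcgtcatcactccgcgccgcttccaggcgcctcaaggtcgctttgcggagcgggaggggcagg
The capitals mark the ETS letters in Uqcrh at bases 241 to 247 and in Ndufb6 at bases 19 to 25, and the NRF1 letters in Ndufa6 at bases 275 to 283, each read on the other strand. The windows of Cox7a2l and Ndufa12 held none of the 4 motifs. Both windows follow the RefSeq start and lie wholly inside the gene as bounded for the counts, chr17:83501918-83517330 for Cox7a2l and chr10:94198720-94221443 for Ndufa12. Of the other nuclear members that rose in both genotypes, Atp5b, Atp5g1 and Ndufab1 held none of the 4 motifs either.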

How the data were processed

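The data are 12 poly(A)-selected RNA-Seq libraries of sorted splenic Treg, 3 per group, read as single reads of 59 bases after 15 PCR cycles. Per the study's methods the authors mapped reads to GRCm38 with CLC Genomics Workbench at default settings. For each gene the authors deposited exon read counts, uniquely placed and intronic read counts, and TPM, the reads per base of gene scaled to the same total in each library. A strand setting of the counting is not given in the sources used here. All columns of per-sample values were mapped to a library.

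Exon counts were tested with edgeR 4.0.16 (R 4.3.3), using TMM scaling, filterByExpr with a minimum count of 10, robust quasi-likelihood fits and Benjamini-Hochberg adjustment over all genes. Each comparison used its 6 libraries, and the interaction all 12. Following the study, genes were called from a fold of 1.5 upwards where the adjusted p did not exceed 0.01. Depth was 10665174 to 19005482 exon reads. Replicates differed beyond sampling noise, with a chi-square per gene of 6.11 to 64.3, so none was counted as a duplicate. The fits were also run on simulated counts, whose outcome is not given here and is not used as support. Values per library are CPM with TMM factors of all 12 libraries. Sums and ratios are of the deposited TPM and carry no test.

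Named nuclear genes were the 5 largest rises and falls with non-overlapping libraries in each stimulation comparison, the 3 smallest p in the others, isoform sets, the 4 Sdh genes and Ndufs1, Uqcrc1, Uqcrfs1 and Atp5b, with up to 4 genes of each list. Ndufv3, Ndufc1, Ndufc2, Uqcrq and the Atp5o rows were named after their values were seen. The members and lists were chosen with earlier results of these data known. Alternatives were DESeq2 1.42.0, limma 3.58.1 on log2 TPM with a pseudocount of 1 or 0.1, other scalings, filters, read classes and thresholds, a replicate block, and each library left out.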

Additional observations from a re-analysis of the deposited data

How the results depend on the processing

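Between the genotypes and in the interaction, 0 members were called under every alternative run. On stimulation, the 20 members called in CD18wt became 39 with limma on log2 TPM at either pseudocount, and the 24 in CD18Foxp3 became 37 with the pseudocount of 1 and 38 with 0.1. On that scale 30.1% of all genes rose and 7.19% fell in CD18wt, and 31.5% and 9.99% in CD18Foxp3, with the pseudocount of 1. On that scale 30 nuclear members rose and 2 fell in CD18wt at either pseudocount, with medians of -0.74 over mitochondrial and 0.47 and 0.48 over nuclear members. In CD18Foxp3, 31 and 32 rose and 2 fell, with a nuclear median of 0.52 at both. The shift of all genes on this scale, 0.36 and 0.31 at the pseudocount of 1, goes in the same direction. With no filter on low counts 11 nuclear members fell in CD18wt, where 9.58% of the 20285 genes then tested fell. Upper-quartile scaling gave 8 that rose, 7 that fell and a median of 0.11 in CD18Foxp3, and dropping the fold limit gave 7 that fell. The cause of these changes was not tested.

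Leaving out each library in turn gave 4 to 11 nuclear members that rose and 4 to 9 that fell in CD18wt. In CD18Foxp3 it gave 5 to 12 mitochondrial members that fell and 8 to 13 nuclear members that rose. No share of all genes is given for these fits, so the ranges were not set against a background. With each library left out, 7 of the 8 mitochondrial and 8 of the 12 nuclear members called in CD18wt kept their call throughout, and 5 of 6 and 11 of 18 in CD18Foxp3. With the other settings added, these were 7 and 6 in CD18wt and 4 and 10 in CD18Foxp3.

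The ratio of mitochondrial to nuclear sums was 4.79 from uniquely placed reads, 4.67 from exon reads and 41.0 from medians in unstimulated CD18wt, and 2.17, 2.11 and 23.8 in stimulated CD18wt. In CD18Foxp3 it was 4.51, 4.40 and 39.6 unstimulated and 2.22, 2.16 and 26.6 stimulated.

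The names of the deposited data carry a number that is shared between unstimulated and stimulated libraries of a genotype. The labels do not say whether it marks the same mouse or preparation, so the libraries were not taken as pairs. Correlations of deviations between libraries of the same replicate number were 0.16, -0.06 and -0.10 in CD18wt and 0.17, 0.07 and 0.22 in CD18Foxp3. In CD18Foxp3, but not in CD18wt, every library correlated best with its own number, which is a hint from the data, while the labels state no pairing. With the replicate block, 10 mitochondrial members fell in CD18Foxp3 in place of 6, and Cox4i1, Atp5l and Atp5b were no longer called in CD18wt. The share of all genes that fell in this fit is not given here, so the gain was not set against a background. Over 49 named genes, 1228 of 1359 alternative values kept their side of the threshold, 48 of them values without a call that changed sign. A call was lost by 68 and gained by 63, and 0 calls changed sign.

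With 3 libraries a group, the count of members near the threshold moves with single libraries. Poly(A) selection limits the mitochondrial values to RNA with a tail, and 15 PCR cycles without molecular identifiers mean that reads are not independent molecules.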

Other observations

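The 2 mitochondrial ribosomal RNAs lie just before mt-Nd1 in the genome and are not protein-coding, so they are outside the set described above. A poly(A) selection captures them only in part. mt-Rnr1 stood at 1394, 975 and 1259 TPM in unstimulated and 1503, 1628 and 1182 TPM in stimulated CD18wt libraries, and at 1082, 1182 and 1030 TPM without and 2047, 1292 and 1312 TPM with stimulation in CD18Foxp3. On the normalised count scale its log2 fold change on stimulation was -0.14 ± 0.19 in CD18wt and 0.14 ± 0.19 in CD18Foxp3 (edgeR adjusted p = 0.557 for both). mt-Rnr2 had -0.09 ± 0.15 and 0.22 ± 0.14 (adjusted p = 0.627 and 0.218). Both thus lay near the values of mt-Nd1, 0.04 and 0.20, and neither passed the threshold.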
